A study of Apostichopus japonicus with 9 samples.

Results

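Intestinal RNA of the sea cucumber Apostichopus japonicus held at low salinity was compared with that of control animals, using 6 of the 9 libraries of the series: 3 from animals in diluted sea water (SD20, labelled salinity 20) and 3 from animals in normal sea water (SD30, labelled 30). The 6 libraries were taken by their labels and not by a measured value, but the comparison was chosen with earlier results of these data known. The high-salinity libraries (SD40) served to estimate the spread, as an outside ranking of abundance and to look up transcripts not detected in one of the groups. Both groups were held at 15 °C beforehand, with 20 animals per group, and the salinity of the SD20 sea water was lowered by 2.5 every 6 h. Each library was made from RNA of 3 animals pooled in equal amounts. The sources used here do not give the strain, age or sex of the animals or how long they stayed at the final salinity. Nothing says whether pools of a group came from different tanks. If they shared a tank, tank and salinity cannot be told apart, and the spread between libraries leaves out differences between tanks. That spread may also be partly technical. The p-values below treat each library as an independent replicate of its salinity. Salinities appear with and without a percent sign in the labels, and only the labelled numbers are used.

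Sea cucumbers are osmoconformers: their body fluid follows the salt content of the sea water, and their cells adjust their volume by moving ions and small organic osmolytes such as free amino acids. The intestine takes up nutrients and, like other thin-walled organs, is bathed in coelomic fluid. Digestive tissues of many animals devote a large part of their messenger RNA to a few secreted or storage proteins, so a change in those few transcripts alters the share left for all others.

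The 6 libraries held 3340018 to 4060892 estimated counts, assigned to 26481 gene models in at least 1 library and to 13227 models in all 6. The fit tested 14191 models. In each library 48.9% to 54.4% of the non-zero counts were whole numbers, and models with other values are uncertain where similar copies exist. The files do not pair the identifiers (AJAP numbers) with gene names, and 0 of 27269 identifiers occur in the species' RefSeq table. The intestinal origin could therefore not be checked against marker genes, no pathway is named, and no sequence is shown. In pooled tissue, fewer cells of a type and less RNA per cell cannot be told apart.

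The low-salinity libraries resembled each other, whereas the controls did not. A profile distance was computed for each pair of libraries as the percentage of counts that would have to move between genes to turn one library's profile into the other's. It was 21.4%, 19.2% and 19.7% for the 3 SD20 pairs, and 43.7%, 39.1% and 34.8% for the 3 SD30 pairs. SD30 replicate 3 lay 17.9%, 21.3% and 23.7% from the SD20 libraries, a range that overlaps the distances among the SD20 libraries themselves. SD30 replicates 1 and 2 lay 38.0% to 44.4% and 37.8% to 40.6% from them. Those 2 controls thus stood apart from SD20, from each other and from the third control.

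**Figure D1:**
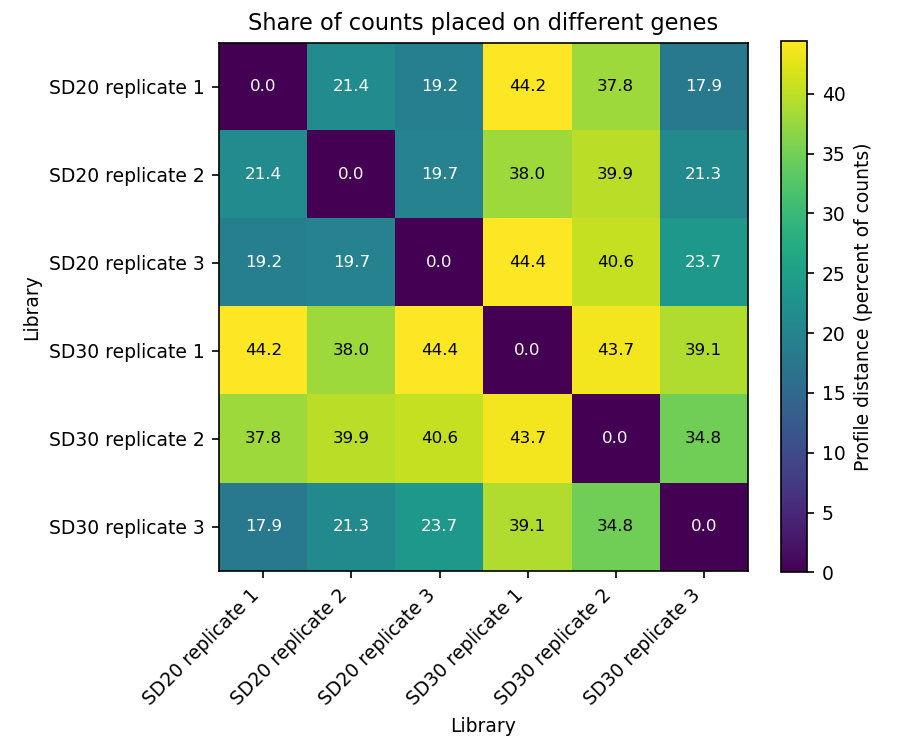
Profile distance between each pair of the 6 libraries, in percent of counts, with libraries on both axes. The square of low values joins the 3 SD20 libraries (19.2% to 21.4%), and SD30 replicate 3 lies 17.9% to 23.7% from them, while SD30 replicates 1 and 2 are far from all others.

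Averaged over pairs, the distance was 34.2% between groups and 29.6% within groups, a difference of 4.57 points. Among the 10 ways to divide the 6 libraries, the labelled one gave the greatest difference (exact one-sided permutation p = 0.1, the smallest the design allows). The difference was -1.55 points without SD20 replicate 3, 0.34 without replicate 1 and 0.60 without replicate 2, and leaving out an SD30 library gave 6.44 to 14.8 points. After removal of the 10 leading genes, SD30 replicate 1 stayed at 44.0% to 49.2% from the SD20 libraries, and SD30 replicate 2 came down to 27.8% to 35.7%. Leaving out the leading genes thus brought SD30 replicate 2 nearer to low salinity but not SD30 replicate 1.

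Low-salinity libraries spread their counts over more transcripts. The 10 most abundant genes, ranked by mean share over the 6 libraries, took 30.6%, 29.7% and 29.2% of counts in SD20 and 38.4%, 62.0% and 36.0% in SD30. Every SD20 value was under every SD30 value, with means of 29.9% ± 0.703 and 45.4% ± 14.4 (SD, n = 3 each; exact two-sided permutation p = 0.1, and 0.163 after adjustment over 13 library measures). The difference of -15.6 points became -7.32 without SD30 replicate 2. The ranking used the same libraries, so a gene abundant in a single pool could enter it; with the 10 leading genes taken from SD40 instead, the difference was -12.8 points and the groups overlapped (exact permutation p = 0.4). For 3 libraries against 3, 0.1 is the smallest p possible, so no single library measure could pass a threshold of 0.05.

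At the other end of the abundance scale the order was reversed. Genes ranked past 1000 took 23.9%, 23.4% and 26.8% of counts in SD20 and 13.4%, 10.2% and 21.3% in SD30, again without overlap (exact permutation p = 0.1, adjusted 0.163). Genes ranked past 100 and up to 1000 took 24.4% ± 0.851 in SD20 and 19.4% ± 4.63 in SD30, with SD30 replicate 3 (23.9%) inside the SD20 range (SD, n = 3 each; exact permutation p = 0.2). Ranks 11 to 100 showed no consistent direction, at 20.5% to 21.7% in SD20 and 28.6%, 13.2% and 18.8% in SD30.

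The effective number of transcripts, the number of equally abundant transcripts that would give the same diversity, summarised this spread in 1 value per library. It was 725, 758 and 893 in SD20 and 236, 84.4 and 539 in SD30 (exact permutation p = 0.1, adjusted 0.163). Taking each library's own ranking, 50% of all counts were reached with 74, 81 and 95 genes in SD20 but with 15, 4 and 55 in SD30. SD30 replicate 3 was on these measures the control nearest to low salinity, yet it still lay outside the SD20 range.

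**Figure D2:**
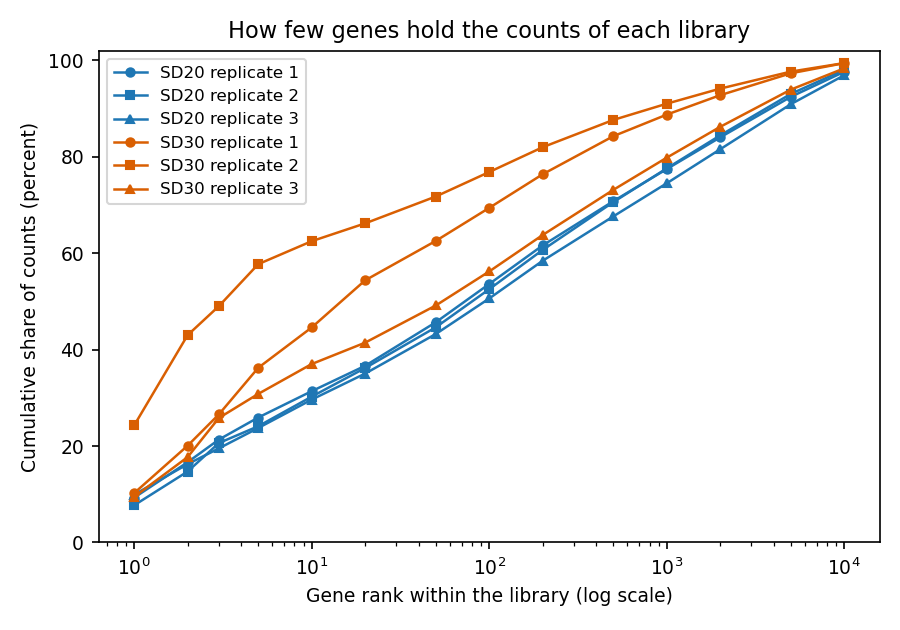
Cumulative share of counts (percent) against gene rank within each library (log scale), with SD20 in blue and SD30 in orange. The 3 SD20 curves nearly coincide, at 31.4%, 30.2% and 29.6% for the first 10 genes, and the SD30 curves lie above them at 44.6%, 62.5% and 37.0%.

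The share of counts that moved between groups was lost by few genes and gained by many. Between the mean SD30 and the mean SD20 profile, 26.3 percentage points changed place. Only 4 genes made up 50% of the loss, whereas 415 genes were needed for 50% of the gain. In all, 5362 genes had a lower mean share in SD20 and 21119 a higher one. Shares add up to a fixed total, so a loss in a few leading genes raises the shares of the rest. With scaling adjusted for composition (TMM), the median log2 fold change over the 14191 tested genes was 0.067. The 10 most abundant genes gave 60.2% of the loss and 1.05% of the gain, and genes ranked past 100 and up to 1000 gave the greatest part of the gain (32.6%), followed by those past 1000 and up to 5000 (26.1%). For 50% of the loss 2 genes sufficed without SD30 replicate 1 and 7 were needed without SD30 replicate 2, and the number for the gain was 265 without SD30 replicate 2.

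The 4 genes were AJAP12149, AJAP13414, AJAP07929 and AJAP26202, and their mean shares differed by -14.5 points in sum. AJAP12149, a model of 1587 bases, took 7.36%, 7.004% and 6.33% of counts in SD20 and 9.84%, 24.3% and 8.24% in SD30. All SD20 libraries were below all controls, but most of the mean difference of -7.22 points came from SD30 replicate 2. In FPKM, which allows levels of different genes to be set side by side, AJAP12149 stood at 45692, 43540 and 39345 in SD20 and at 61279, 152095 and 51265 in SD30. The log2 fold change came to -2.27 (SE 0.68, edgeR quasi-likelihood test, adjusted p = 0.370). Leaving out single libraries gave -2.77 to -1.30, the weakest of these without SD30 replicate 2, and scaling to library totals gave -1.02 and limma on log2(FPKM + 1) -0.87.

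AJAP26202, a long model of 11460 bases, behaved more evenly. Its share was 4.70%, 5.91% and 3.27% in SD20 and 6.50%, 6.02% and 8.12% in SD30. Its counts were whole in all 6 libraries and the shares of the groups did not overlap, though by a narrow margin (log2 fold change -1.57, SE 0.35, edgeR adjusted p = 0.370). AJAP07929, of 4554 bases, took 9.29%, 7.71% and 9.92% in SD20 and 5.80%, 18.7% and 9.46% in SD30. Its shares overlapped, with a mean difference of -2.36 points, the highest share in SD30 replicate 2 and the lowest in SD30 replicate 1. On TMM-scaled CPM (counts relative to a library size adjusted for composition) every SD20 library was below every control (log2 fold change -1.50, SE 0.68, edgeR adjusted p = 0.408). These 2 genes were named after their values were seen.

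AJAP13414 showed how far a single pool could decide a mean. It took 0.00985%, 1.35% and 0.906% of counts in SD20 and 10.2%, 0.0127% and 0.0700% in SD30. The mean difference of -2.68 points was that of SD30 replicate 1, since 2 of the 3 SD20 libraries exceeded the other two controls. The fitted log2 difference was -3.43 (SE 2.47, edgeR adjusted p = 0.538) and turned to 3.66 without SD30 replicate 1.

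Gains were individually small. The greatest, that of AJAP16542 (1989 bases), amounted to 0.800 points, with 0.546%, 1.36% and 1.27% of counts in SD20 and 0.188%, 0.253% and 0.336% in SD30. As a share of all counts its groups did not overlap, but on TMM-scaled CPM they did, because SD20 replicate 1 at 4106 CPM lay below SD30 replicate 2 at 5160. The log2 fold change of AJAP16542 was 1.05 (SE 0.43, edgeR adjusted p = 0.398). The next, AJAP20658 (582 bases, whole counts), took 0.266%, 0.548% and 0.326% in SD20 and 0.00225%, 0.0314% and 0.150% in SD30. Its lowest SD20 library was above its highest control on either scale (log2 fold change 2.11, SE 0.97, edgeR adjusted p = 0.415). With limma on log2(FPKM + 1) the log2 fold changes were 1.96 for AJAP16542 and 4.02 for AJAP20658. The 4 greatest gains made up 6.24% of all gain.

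Across the tested genes, fold changes were graded by abundance. With TMM scaling the median log2 fold change of SD20 against SD30 was 0.067 over all 14191 genes, with quartiles of -0.63 and 0.84. For ranks 1 to 10 it was -1.54, none of the 10 had a positive value, and the median was -0.88 without SD30 replicate 2. It was -0.70 for ranks 11 to 100, -0.56 for the next band up to rank 1000, -0.19 for that up to rank 5000 and 0.28 for genes ranked past 5000. Scaled to library totals instead, the overall median was 0.92, that of ranks 1 to 10 was -0.44 and the other bands had positive medians, with the bands in the same order. The TMM factors behind this were 1.34 to 1.42 in SD20 and 0.571, 0.492 and 1.18 in SD30, so the 2 controls that stood apart had factors under 1.

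**Figure D3:**
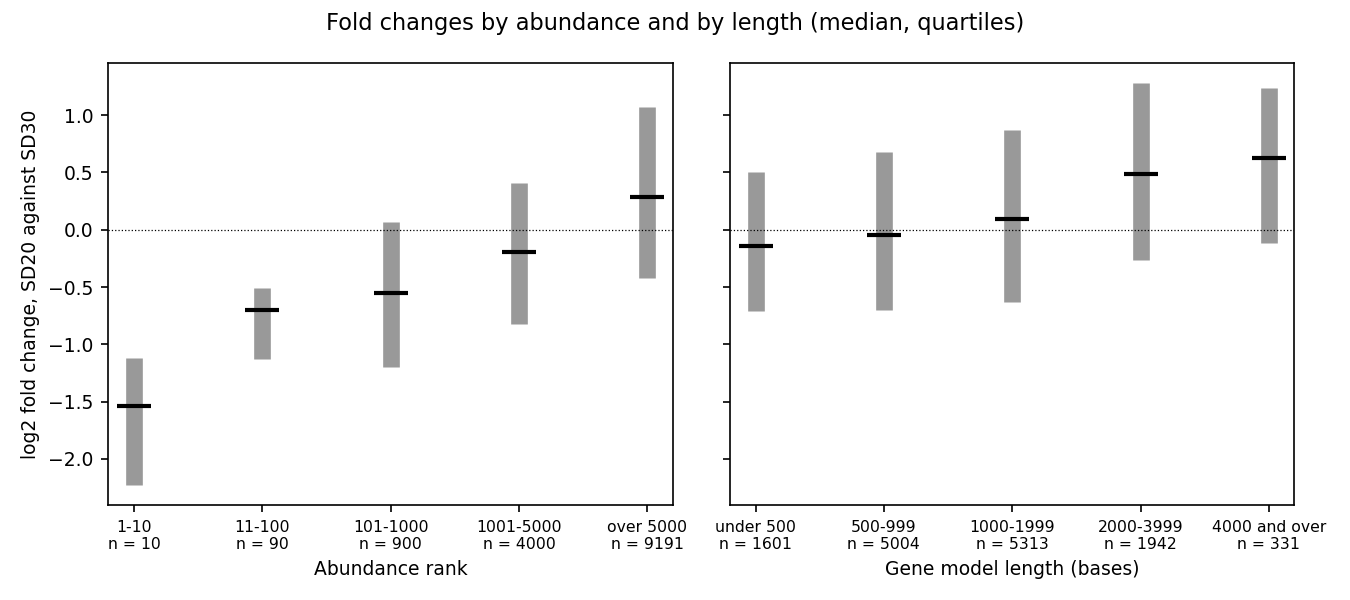
Log2 fold change of SD20 against SD30 by abundance rank (left) and by gene model length in bases (right), as median (black bar) and quartiles (grey). The medians go from -1.54 for ranks 1-10 to 0.28 past rank 5000, and from -0.14 for models under 500 bases to 0.63 for those of 4000 bases and over.

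The gradient was also present when genes were ranked outside the comparison. With abundance ranked in the 3 SD40 libraries, the medians were -1.16, -0.61, -0.49, -0.17 and 0.28 from the first band to the last. Spearman's rho of the fold change with mean CPM across genes was -0.33, and with mean SD40 CPM -0.28; genes are not independent replicates and these are descriptions. A contrast per library, the median deviation of genes past rank 5000 minus that of the 100 most abundant, largely cancels a library's scaling factor. It was 0.29, 0.48 and 0.71 in SD20 and -0.67, -0.86 and 0.17 in SD30 on the log2 scale, without overlap (difference 0.94, exact permutation p = 0.1, adjusted 0.163).

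Set against each control library in turn, the gradient was steep for SD30 replicates 1 and 2 and shallow for SD30 replicate 3. The median log2 difference between the SD20 mean and the control was -1.22 and -1.86 for ranks 1 to 10 against replicates 1 and 2, and -0.28 against replicate 3. For genes past rank 5000 it was 0.53 and 0.46 against replicates 1 and 2, and 0.24 against replicate 3. Over all tested genes this median was itself above zero, at 0.26, 0.23 and 0.13 against replicates 1, 2 and 3. The direction at both ends was thus the same against each control, and the size was not.

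**Figure D4:**
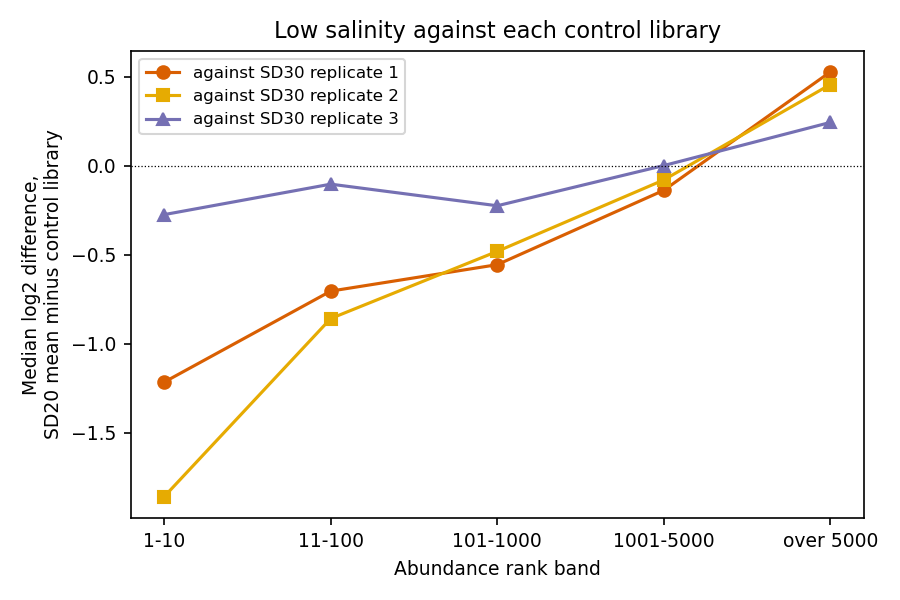
Median log2 difference (CPM + 1) between the mean of the 3 SD20 libraries and each SD30 library, by abundance rank band. The lines against SD30 replicates 1 and 2 run from -1.22 and -1.86 up to 0.53 and 0.46, and that against replicate 3 from -0.28 to 0.24.

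The precision of a fold change also depended on abundance. The median standard error was 0.42 for ranks 11 to 100, 0.53 from there to rank 1000, 0.55 from there to rank 5000 and 0.80 past rank 5000, where the median level was 5.20 CPM. For ranks 1 to 10 it was 0.70, and these genes differed strongly among controls: their median SD of log2(CPM + 1) was 0.29 in SD20 and 1.14 in SD30. Over all tested genes the median SD was 0.51 in SD20 and 0.67 in SD30, and 61.8% of genes were more variable among the controls. With 3 libraries per group, this difference in spread was not tested.

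In median fold change, long gene models stood higher at low salinity than short ones. The median log2 fold change was -0.14 for models under 500 bases, -0.047 from 500 to under 1000, 0.095 from 1000 to under 2000, 0.48 from 2000 to under 4000 and 0.63 for the 331 models of 4000 bases and over. Without SD20 replicate 3 the median of the longest class was 0.37, and without SD20 replicate 1 that of the class from 1000 to under 2000 was 0.00078. Omission of SD30 replicate 1 gave -0.21 and -0.084 for the 2 shortest classes. Lengths were multiples of 3 for 93.5% of models, so they are mainly coding lengths. A few models have listed lengths over 20000 bases, which may not be coding lengths; among them is AJAP14103, listed at 1761004 bases, which is 1 of the 10 leading genes with 0.908% to 1.40% of counts. Without these models the median of the longest class was 0.65. Past rank 5000 the medians were 0.034, 0.12, 0.38, 0.84 and 0.87 from the shortest class to the longest, and in the band from rank 1000 to 5000 they were -0.32, -0.34, -0.23, 0.15 and 0.25. In the band from rank 100 to 1000 they were -0.65, -0.57, -0.64, -0.30 and 0.19. The 2 longest classes were above the 3 shorter ones in each of these bands, whereas the shorter ones were in order of length only past rank 5000.

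Per library, the median deviation of models of 2000 bases and over minus that of models under 1000 was 0.27, -0.099 and 0.52 in SD20 and -0.32, -0.26 and -0.12 in SD30 on the log2 scale. The groups did not overlap, but SD20 replicate 2 (-0.099) and SD30 replicate 3 (-0.12) were close (difference of means 0.46, exact permutation p = 0.1, adjusted 0.163). Against SD30 replicate 3 alone the models of 4000 bases and over still had a median difference of 0.51, compared with 0.0062 for those under 500. Measures weighted by counts did not show longer models ahead in SD20. The count-weighted mean length, without models over 20000 bases, was 2172 ± 64.5 bases in SD20 and 2432 ± 258 in SD30 (SD, n = 3 each, exact permutation p = 0.3). Models under 500 bases took 10.8% ± 0.599 of counts in SD20 and 8.38% ± 2.13 in SD30 (exact permutation p = 0.3). As a share of all counts, models of 2000 bases and over took 31.0% ± 1.77 in SD20 and 31.1% ± 6.87 in SD30 (SD, n = 3 each; exact permutation p = 1.0).

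At the level of single genes, no difference passed the threshold in the main test, whereas some did in DESeq2. edgeR's quasi-likelihood test called 0 of 14191 genes at an adjusted p under 0.05 (0.0% called, lowest adjusted p = 0.370). On simulated data it recovered 0.498% of 4-fold, 39.3% of 16-fold and 70.7% of 64-fold changes. The 0 calls thus do not show that genes were unchanged. Before adjustment, 1738 genes (12.2% of those tested) had a p under 0.05, 791 higher (5.57%) and 947 lower (6.67%) in SD20. DESeq2 called 349 genes (2.46%), 86 higher and 263 lower. Estimated changes were large all the same, with a log2 fold change above 1 for 2958 of the 14191 genes and below -1 for 2270, beside a median standard error of 0.71. Leaving out SD20 replicate 3 gave 939 genes with a low p, leaving out SD30 replicate 1 gave 1068, and leaving out SD30 replicate 3 gave 2383.

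Genes that separated all 6 libraries were counted without a model. In TMM-scaled CPM, 3132 genes (22.1% of those tested) had all SD20 libraries on one side of all SD30 libraries, 1847 of them higher (13.0%) and 1285 lower (9.06%) in SD20. Where the labels make no difference, a gene without ties separates with probability 0.1, divided equally between upward and downward. A share given for a single direction has to be set against that direction's part only. Genes are not independent, so this probability is a reference for the shares here and by band, not a test. The 2 sets differed in level and length, as a description. Genes higher at low salinity had a median level of 5.81 CPM and a median length of 1284 bases, and all tested genes 8.72 CPM and 1057 bases. Genes lower at low salinity had a median level of 21.3 CPM and a median length 58 bases under that of all tested genes. Their median log2 fold changes were 1.62 and -1.31.

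The direction of separation followed abundance and length. Among the 10 most abundant tested genes, here ranked by mean CPM, 6 separated, all lower. In the band from rank 100 to 1000, 5.44% separated upward and 23.4% downward; past rank 5000 it was 15.6% and 5.44%. Of models from 2000 to under 4000 bases 21.5% separated upward and 5.66% downward, and of those under 500 bases 8.31% and 10.6%. With library totals as the scaling, 4181 genes separated upward and 191 downward, and with the authors' FPKM 4165 and 192. A rare gene could pass the filter through the SD20 libraries alone, which may favour upward separation past rank 5000. With 5 CPM required in 3 libraries, 1424 genes separated upward and 1156 downward.

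A clear gap was less common. Of the 14191 tested genes, 344 had their lowest SD20 library more than 2-fold above the highest control, and for 147 the reverse was true. The control that came nearest to SD20 was SD30 replicate 3 for 59.1% of the genes separated upward and 54.0% of those separated downward. On the low-salinity side, SD20 replicate 2 was nearest for 46.5% and 42.3%, and SD20 replicate 3 for 15.2% and 19.5%. Without SD30 replicate 3 the numbers were 3473 and 2453, without SD20 replicate 2 they were 3121 and 2039, and 2072 were lower without SD30 replicate 2; fewer libraries separate more easily.

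Of the genes with whole counts in all 6 libraries (6214 tested), those with the smallest p among the separated ones were AJAP12573 and AJAP19838, lower in SD20, and AJAP11345 and AJAP02445, higher. What these genes encode is not given in the files. AJAP11345, of 1035 bases, had 96, 301 and 174 counts in SD20 and 10, 13 and 28 in SD30. In TMM-scaled CPM it stood at 21.0, 62.6 and 33.4 against 5.21, 6.54 and 7.14, with closely grouped controls and no overlap (log2 fold change 2.62, SE 0.51, edgeR adjusted p = 0.370, DESeq2 adjusted p = 0.00168). The closeness of the controls depended on the scaling: in FPKM they stood at 2.87, 3.11 and 8.1, below 26.9, 79.91 and 45.05 in SD20.

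AJAP02445, of 708 bases, had 249, 2310 and 1607 counts in SD20 and 8, 25 and 50 in SD30. Every low-salinity library was several times above every control, and the 3 differed among themselves, at 54.4, 481 and 308 CPM against 4.17, 12.6 and 12.7. On the log2 scale SD20 was estimated 4.82 above SD30 (SE 0.95, edgeR adjusted p = 0.370, DESeq2 adjusted p = 8.35e-05), with 4.17 to 5.26 after single omissions.

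AJAP12573, of 1842 bases, had 53, 43 and 46 counts in SD20 and 95, 226 and 256 in SD30. The low-salinity libraries were close together at 11.6, 8.95 and 8.82 CPM, far below the controls at 49.5, 114 and 65.3. The log2 fold change was estimated at -2.96 (SE 0.56, edgeR adjusted p = 0.370, DESeq2 adjusted p = 0.000272), and at -1.78 with limma on log2(FPKM + 1). AJAP19838, of 1455 bases, had 38, 24 and 36 counts in SD20 and 50, 82 and 126 in SD30. It stood at 8.30, 4.99 and 6.90 CPM against 26.1, 41.2 and 32.1, with no overlap (log2 fold change -2.29, SE 0.44, edgeR adjusted p = 0.370, DESeq2 adjusted p = 0.000214). The gap depended on the scaling: as a share of all counts the highest SD20 library stood at 0.00110% and the lowest control at 0.00148%, and the log2 fold change was -1.40 with library totals and -1.21 with limma on log2(FPKM + 1). These 4 genes were picked for small p, which favours wide gaps in these same libraries.

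**Figure D5:**
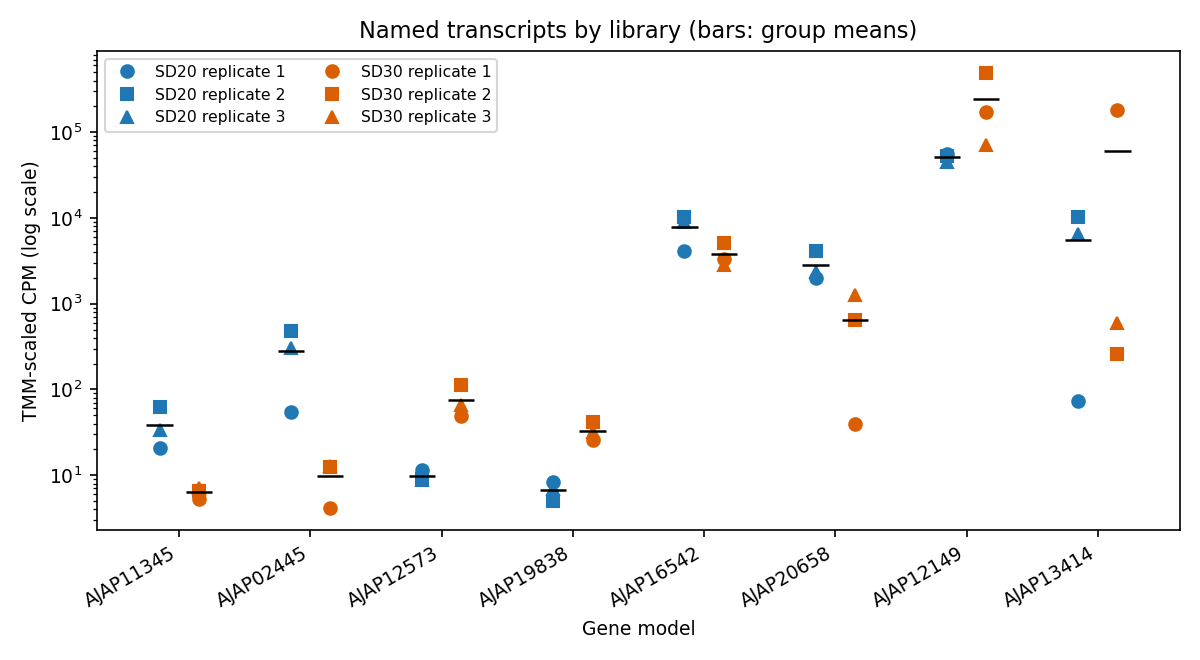
TMM-scaled CPM (log scale) of the 8 transcripts chosen by rule, by library, with SD20 in blue, SD30 in orange and bars at the group means. AJAP11345, AJAP02445, AJAP12573, AJAP19838, AJAP20658 and AJAP12149 do not overlap between groups, AJAP16542 does, and AJAP13414 ranges from 74.1 CPM to 180019 CPM with no order by group.

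Transcripts seen in only one of the 2 groups were mostly seen at low salinity. Of the 26481 gene models with counts in at least 1 of the 6 libraries, 506 had counts in all SD20 libraries and none in any SD30 library. The opposite pattern was seen for 35. Most were rare: the median summed count was 11.2 over the 3 SD20 libraries, and 35 of the 506 reached 5 counts in each of them, against 1 of the 35 in SD30. Of the 506, 435 had counts in at least 1 SD40 library and 87 in all 3. For comparison, 22129, 19212 and 19105 of all 27269 models had counts in SD40 replicates 1, 2 and 3. Depth over the less abundant genes moved with this result. Outside its own 10 leading genes a library held 2362166, 2536252 and 2624093 counts in SD20 but 1869314, 1523092 and 2103888 in SD30.

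With every library thinned to 1520000 counts outside its 10 leading genes, the numbers were 416 for SD20 and 36 for SD30. Unthinned, the 506 became 1512 without SD30 replicate 3 and 799 when SD30 replicate 2 was omitted, and omitting SD20 replicate 2 gave 1065 and omitting SD20 replicate 1 gave 826. The 35 became 88 to 117 when any 1 library was left out. Thinned to 3300000 counts in all, 21453, 20554 and 22383 models were detected in SD20 and 17146, 17317 and 20057 in SD30, without overlap (exact permutation p = 0.1, adjusted 0.163). A model not seen in SD30 was below detection at this depth and is not shown to be absent.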

How the data were processed

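Per the labels' protocols, poly(A) RNA from pools of 3 animals was sequenced on a BGISEQ instrument. The deposited files give unscaled estimated counts with up to 2 decimals (per the file headers and values), the authors' FPKM, and the model length. The submitters' processing notes name CASAVA 1.5. The sources used here do not name the aligner, counter, genome or gene annotation. A gene without a line was set to 0.

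Estimated counts were rounded and fitted in edgeR 4.0.16 (R 4.3.3) for all 9 libraries with salinity group as the only term (filterByExpr, TMM, robust quasi-likelihood test, Benjamini-Hochberg adjustment over 14191 genes, threshold 0.05). Standard errors were obtained as fold change over root F. DESeq2 1.42.0 and limma 3.58.1 on log2(FPKM + 1) or log2(FPKM + 0.1), keeping genes with 1 FPKM in 3 libraries, were alternatives. Library measures were compared by exact two-sided permutation over 6 libraries, adjusted over 13 measures. Abundance ranks use mean CPM (or mean share, for shares of counts) of the 6 libraries. Named genes are the 2 higher and 2 lower with the smallest p among separated genes with whole counts, and the 2 with the greatest gain and loss of share. The comparison and these rules were chosen with earlier results of these data known. The edgeR test was checked on simulated data, and the permutation test on values with a known answer.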

Additional observations from a re-analysis of the deposited data

How the results depend on the processing

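For genes past the adjusted threshold the count was 0 under every alternative run but DESeq2, which gave 349. The 1738 genes at an unadjusted p under 0.05 (791 higher, 947 lower) became 2635 (2462 and 173) with library totals, 4210 (4018 and 192) with limma on log2(FPKM + 1), 4072 (3887 and 185) on log2(FPKM + 0.1) and 855 (465 and 390) among whole-value genes, where fewer genes were tested; without the filter 1244 were higher. Leaving out single libraries gave 939 to 2383 in all, 379 to 1108 higher and 560 to 1275 lower. The replicate numbers showed no sign of pairing the libraries. Deviations of same-numbered SD20 and SD30 libraries correlated at -0.11, 0.0085 and 0.062, and those of differently numbered ones at -0.17 to 0.15. With 3 libraries per group these values cannot show that pairing is absent. The replicate block gave 1588 genes at a low p and 0 calls.

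Separated genes (1847 higher, 1285 lower) numbered 4181 and 191 with library totals, 4165 and 192 in FPKM, and 995 and 540 among whole-value genes; single omissions, chosen after seeing the data, gave 2220 to 3473 and 1652 to 2453. Single omissions, likewise added, gave 653 to 1512 models seen only in SD20, 88 to 117 seen only in SD30, and 265 to 436 and 2 to 7 genes for 50% of gain and loss. With library totals the median log2 fold change turned to 0.28, 0.38 and 0.70 for the bands ending at ranks 100, 1000 and 5000, and to 0.75 and 0.82 for models under 500 and from 500 to under 1000 bases; the last was 0.067 with upper-quartile scaling and 0.080 among whole-value genes.

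With ranks from SD40, the difference for ranks past 100 and up to 1000 was -0.0476 points, and that for the 10 leading genes was -12.8 with overlapping groups (exact permutation p = 0.4). Single omissions gave -2.69 to 4.52 points for ranks 11-100, -3.87 to 2.82 for models of 2000 bases and over, and -1.55 to 14.8 for the profile distance. AJAP13414 turned to 1.75 with the replicate block, 3.66 without SD30 replicate 1 (-4.22 to 3.66 over single omissions), and 0.13 with limma under either pseudocount. The causes were not tested. The depth of the libraries limits what can be said of genes near the detection floor.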
